A study of Mus musculus with 6 samples.

Results

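The genes described here are the machinery that takes newly made proteins into the endoplasmic reticulum (ER), cuts and glycosylates them there, and returns misfolded ones to the cytosol for ER-associated degradation (ERAD). They were given as a list of 42 gene names, drawn up with earlier results of these data known, so that counts over the list are a description and not independent evidence. All 42 were present among the 24421 gene symbols in the count tables. In total, 41 passed the filter on low counts. RNA-Seq was performed on mature 3T3-L1 adipocytes, a mouse preadipocyte line that becomes adipocytes in culture and whose strain the labels give as C57BL/6. All cultures were differentiated with insulin, TZD, Dex and IBMX, with the last 2 agents withdrawn during differentiation, and were infected with 100 pfu of adenovirus per cell on day 7 of differentiation. The control group received a virus carrying LacZ, which encodes a bacterial enzyme (AdLacZ), and the other group a virus carrying codon-optimized murine *Lmo3*, a LIM-domain transcriptional cofactor (Ad*Lmo3*). RNA was taken 72 h after transduction from 3 separate infections per group, so that both groups had been exposed to virus and to the differentiation agents, and no uninfected culture was compared. As all libraries came from the same cell line in culture, the spread between them is that between infections and not between animals.

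A secretory or membrane protein is brought to the ER by the signal recognition particle and its receptor, and is threaded through the Sec61 channel while it is being made. Signal peptidase removes its leader sequence, and oligosaccharyltransferase adds a preassembled sugar tree to asparagines. Proteins that fail to fold are recognized by their trimmed sugars, handed to a ubiquitin ligase in the ER membrane, and pulled out by the ATPase p97 for the proteasome. Adipocytes secrete adiponectin, lipoprotein lipase and other glycoproteins by this route, and parts of the machinery are known target genes of the unfolded protein response, the program that adjusts ER capacity to its load.

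The 6 libraries held 28035639 to 38332335 counts in genes. The 42 genes took 0.743%, 0.712% and 0.755% of the counts with AdLacZ and 0.615%, 0.588% and 0.586% with Ad*Lmo3*, so the groups did not overlap as shares of the library totals. With scaling to library totals, the median log2 fold change of all tested genes was also below 0, at -0.072. Values below are TMM-normalized CPM (the count of a gene scaled to a library of common size). A count of 3 was taken as the floor of detection and covers counting error only. It corresponds to 0.0783 to 0.107 CPM by library totals, without the TMM factors. *Lmo3* itself had a count of 0 in all 6 libraries, and since the viral sequence was codon-optimized, the labels were not checked through it. All 12 adipocyte markers passed the low-count filter. Of these, 8 rose in Ad*Lmo3* (edgeR, adjusted p under 0.05), against 2.71% of all tested genes. The summed level of the 12 was 22831 to 26038 CPM with AdLacZ and 30911 to 37609 CPM with Ad*Lmo3*. None of the 10 preadipocyte and fibroblast markers passed the test, by edgeR, DESeq2 or limma voom or at an unadjusted p under 0.05. The sum of the 10 ranged from 18052 to 26699 CPM across the 6 libraries. The 6 macrophage markers summed to 3.18 to 5.86 CPM, and the defining ones were at or near 0 (*Adgre1* and *Ptprc* with at most 2 counts and *Itgam* with at most 3 counts in a library). The summed level of 12 interferon response genes, none of which passed any of these tests, ranged from 1356 to 1854 CPM with AdLacZ and from 698 to 3863 CPM with Ad*Lmo3*, with Ad*Lmo3* replicate 1 lowest and replicate 3 highest. The part of the adipocyte markers and the interferon response genes in the results below was not tested, and in such bulk RNA fewer cells of a type and less RNA per cell cannot be told apart.

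Of the 41 genes tested, 9 fell in Ad*Lmo3* and 32 did not pass the test. The falling genes were the signal peptidase subunits *Spcs2* and *Spcs3*, the oligosaccharyltransferase subunit *Rpn1*, the ERAD lectins *Edem1* and *Os9*, and the ubiquitin ligase components *Syvn1*, *Sel1l*, *Herpud1* and *Derl1*. The log2 fold changes ran from -0.29 for *Os9* to -0.72 for *Herpud1*. Over all 12766 tested genes, 1.57% were lower by the same rule (edgeR's quasi-likelihood test, adjusted p under 0.05), against 22.0% of the 41. No gene of the list rose, against 2.71% of all genes. That count of 0 came from edgeR, and was also 0 by DESeq2 and limma voom. At an unadjusted p under 0.05 by edgeR 1 gene, *Edem2*, was higher, against 1417 of all 12766 genes. At that threshold 20 of the 41 were lower, against 1218 of all 12766. DESeq2 called 12 of the 41 lower, against 3.43% of all genes, and limma voom 9, against 1.6%. The log2 fold change was below 0 for 39 of the 41 genes, *Srprb* and *Edem2* being the exceptions, against 49.6% of all tested genes. In 27 genes each Ad*Lmo3* library lay below each AdLacZ library, against 13.2% of all genes, in 1 gene (*Edem2*) each lay above, against 13.3%, and in 13 the groups overlapped. The median log2 fold change was -0.17 for the 41 genes and 0.0014 for all tested genes, and the summed level of the list went from 7152, 6982 and 7414 CPM to 6248, 6021 and 6085 CPM, or 85.2% of the AdLacZ mean.

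The number of falling genes depended on the libraries used, while the direction did not. It was 0 without AdLacZ replicate 3 and 0 without Ad*Lmo3* replicate 2 by edgeR, where 0.17% and 0.35% of all genes were lower. In those fits 16 and 14 of the genes were lower at an unadjusted p under 0.05. No share of all genes was computed for those fits, so these counts cannot show an excess. With all 6 libraries, 20 of the 41 and 1218 of all 12766 genes were lower at that threshold. The number of falling genes was 4 without AdLacZ replicate 1 and 4 without AdLacZ replicate 2, where 0.781% and 0.607% of all genes were lower. It was 6 without Ad*Lmo3* replicate 1 (5 of the 9 and *Vimp*) and 3 without Ad*Lmo3* replicate 3, where 1.14% and 0.727% were lower. All 9 genes remained below 0 in each of these fits, and at least 38 of the 41 genes did so as well.

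**Figure D1:**
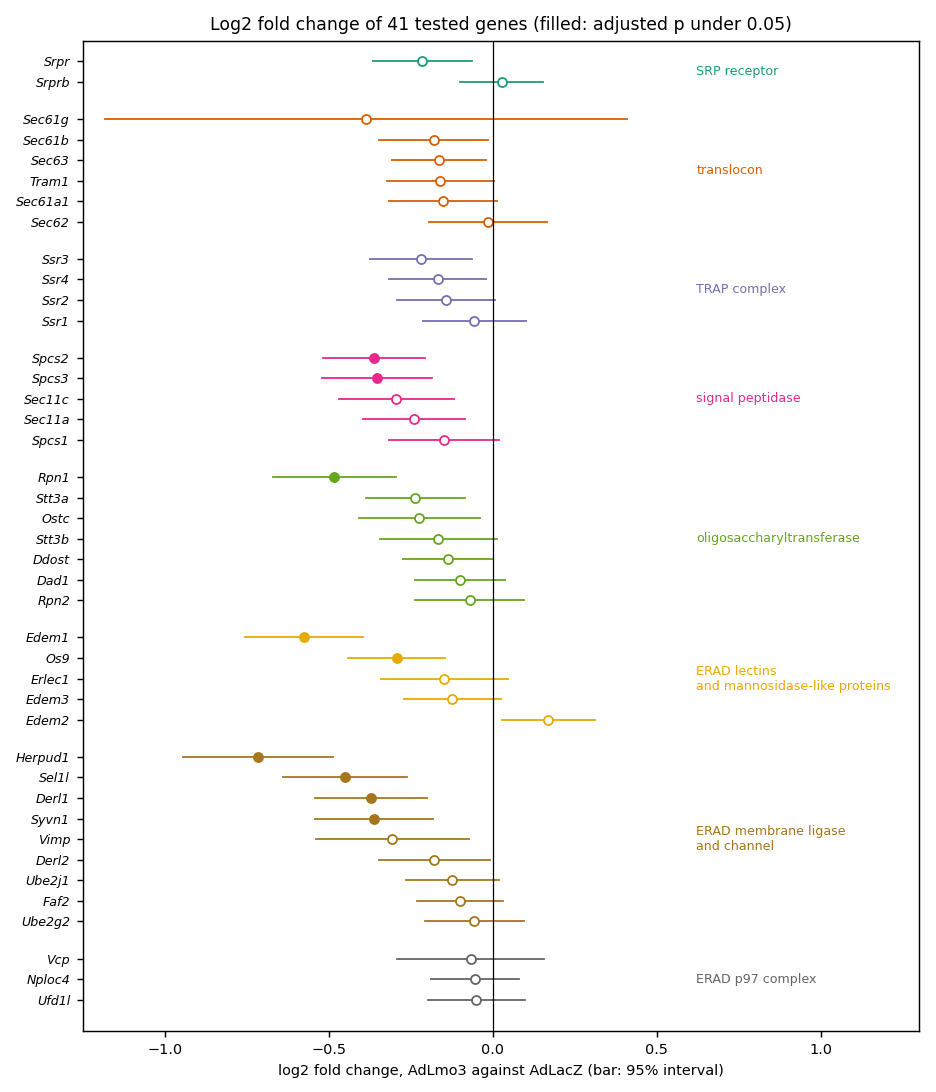
The x axis gives the log2 fold change of Ad*Lmo3* against AdLacZ for the 41 tested genes, grouped by sub-machine, with bars for the 95% interval and filled points for an adjusted p under 0.05. The 9 filled points lie left of 0, *Edem2* is the 1 gene whose whole interval lies right of 0, and *Sec61g*, with few counts, has the widest interval.

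The first step is docking of the ribosome at the ER, for which *Srpr* encodes the soluble subunit of the signal recognition particle receptor and *Srprb* its membrane anchor. Neither passed the test by edgeR, DESeq2 or limma voom, and *Srpr* was lower at an unadjusted p under 0.05. *Srpr*, with the higher level per exon length of the pair (70.4 against 17.8 CPM per kilobase in AdLacZ), was at 225, 245 and 240.5 CPM with AdLacZ and 208, 206 and 198 CPM with Ad*Lmo3* (log2 fold change -0.21 ± 0.066 (SE), adjusted p = 0.115). All 3 Ad*Lmo3* values lay below the lowest AdLacZ value. *Srprb* had a log2 fold change of 0.028 (adjusted p = 0.831), with overlapping groups, and its sign turned with library totals in place of TMM (-0.046).

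None of the 6 translocon genes passed the test by edgeR, DESeq2 or limma voom. At an unadjusted p under 0.05 (edgeR) 2 of them were lower, against 1218 of all 12766 genes. The log2 fold changes of the 6 genes ran from -0.39 to -0.015, with a median of -0.16. *Sec61a1*, which encodes the channel itself, had the highest level of these genes per exon length (68.5 CPM per kilobase in AdLacZ), with 482, 441 and 459.9 CPM with AdLacZ and 430.4, 391 and 424 CPM with Ad*Lmo3* (log2 fold change -0.15 ± 0.072 (SE), adjusted p = 0.284). Its groups did not overlap, and the 95% interval of the log2 fold change was -0.32 to 0.014. The small channel subunit *Sec61b* had a log2 fold change of -0.18 (adjusted p = 0.201). *Sec63*, which docks the luminal chaperone BiP at the channel, had a log2 fold change of -0.16 (adjusted p = 0.183), and *Tram1*, a membrane protein beside the channel, one of -0.16 (adjusted p = 0.250). *Sec62*, the partner of *Sec63* in post-translational entry, had a log2 fold change of -0.015 (adjusted p = 0.943) and a 95% interval of -0.20 to 0.17. *Sec61g*, the other small channel subunit, was counted at only 10 to 23 reads per library, and its log2 fold change of -0.39 had an interval of -1.18 to 0.41.

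The translocon-associated protein (TRAP) complex, which helps some signal sequences to open the channel, is encoded by *Ssr1* to *Ssr4*. None of the 4 passed the test by edgeR, where 2 were lower at an unadjusted p under 0.05, against 1218 of all 12766 genes. By DESeq2 1 passed, with 3.43% of all genes lower, and by limma voom 0, with 1.6% lower. *Ssr3* had the highest level per exon length (109 CPM per kilobase in AdLacZ), with 457, 440.2 and 468 CPM with AdLacZ and 409, 389 and 375 CPM with Ad*Lmo3* (log2 fold change -0.22 ± 0.068 (SE), adjusted p = 0.119). The groups did not overlap for *Ssr2*, *Ssr3* and *Ssr4*. The log2 fold changes were -0.17 (adjusted p = 0.185) for *Ssr4*, -0.14 (adjusted p = 0.268) for *Ssr2* and -0.056 (adjusted p = 0.70) for *Ssr1*, the last with overlapping groups.

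Signal peptidase cleaves the leader sequence of the entering protein. Of its 5 genes, 2 fell in Ad*Lmo3* by edgeR, against 1.57% of all genes, and both encode accessory subunits. At an unadjusted p under 0.05 (edgeR) 4 were lower, against 1218 of all 12766 genes. DESeq2 called 3 lower, against 3.43% of all genes, and limma voom 2, against 1.6%. *Spcs2* (chr7:99837569-99863462, - strand, GRCm38) was at 132, 121 and 138 CPM with AdLacZ and 101, 102 and 101 CPM with Ad*Lmo3*, or 77.9% of the control mean (log2 fold change -0.36 ± 0.068 (SE), adjusted p = 0.0265). *Spcs3* (chr8:54520433-54529998, - strand) was at 122, 132 and 132 CPM with AdLacZ and 108, 98.8 and 95.2 CPM with Ad*Lmo3*, or 78.3% of the control mean (log2 fold change -0.35 ± 0.073 (SE), adjusted p = 0.0378). In both, every Ad*Lmo3* library lay below every AdLacZ library. The catalytic subunits did not pass the test by edgeR, while *Sec11c* did so by DESeq2 (adjusted p = 0.0487), and whether they differ from the accessory subunits was not tested. *Sec11a* was at 65.4, 57.2 and 63.3 CPM with AdLacZ and 53.1, 50.8 and 53.4 CPM with Ad*Lmo3* (log2 fold change -0.24 ± 0.068 (SE), adjusted p = 0.0932), and its paralog *Sec11c* at 24.0, 23.6 and 25.0 CPM with AdLacZ and 19.8, 18.6 and 20.8 CPM with Ad*Lmo3* (log2 fold change -0.29 ± 0.076 (SE), adjusted p = 0.0737). The groups did not overlap in either paralog. The remaining subunit, *Spcs1*, had the highest level of the 5 per exon length (62.6 CPM per kilobase in AdLacZ), with 103, 88.2 and 99.5 CPM with AdLacZ and 88.8, 84.4 and 88.7 CPM with Ad*Lmo3* (log2 fold change -0.15 ± 0.073 (SE), adjusted p = 0.304). Its groups overlapped.

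Oligosaccharyltransferase transfers the sugar tree to the protein, with STT3A or STT3B as its catalytic subunit. Of its 7 genes, 1 fell by edgeR, against 1.57% of all genes. At an unadjusted p under 0.05 (edgeR) 3 were lower, against 1218 of all 12766 genes. DESeq2 called 2 lower, against 3.43% of all genes, and limma voom 1, against 1.6%. *Rpn1* (chr6:88084482-88105304, + strand), which encodes ribophorin I, a subunit that presents some substrates to the enzyme, was at 309, 275 and 308 CPM with AdLacZ and 226, 196 and 216 CPM with Ad*Lmo3*, or 71.5% of the control mean (log2 fold change -0.48 ± 0.082 (SE), adjusted p = 0.0184). The lowest AdLacZ library stood 275 CPM against 226 CPM in the highest Ad*Lmo3* library. *Rpn2*, which encodes ribophorin II and had the highest level of the 7 per exon length (100.1 CPM per kilobase in AdLacZ), was at 453, 421 and 456 CPM with AdLacZ and 399, 424 and 444 CPM with Ad*Lmo3* and did not pass the test (log2 fold change -0.071 ± 0.072 (SE), adjusted p = 0.642). Its groups overlapped, and the 95% interval of its log2 fold change, -0.24 to 0.10, did not reach the fitted value of *Rpn1*, although the difference between both genes was not tested. Neither catalytic subunit passed the test by edgeR, while *Stt3a* did so by DESeq2 (adjusted p = 0.0217). *Stt3a*, of the translocon-bound enzyme that works as the chain enters, was at 305, 296 and 313 CPM with AdLacZ and 272, 250.1 and 255 CPM with Ad*Lmo3* (log2 fold change -0.24 ± 0.066 (SE), adjusted p = 0.0909), without overlap. *Stt3b*, of the enzyme that acts on sites that were skipped, was at 263, 303 and 296 CPM with AdLacZ and 266, 259 and 243 CPM with Ad*Lmo3* (log2 fold change -0.17 ± 0.078 (SE), adjusted p = 0.276). The groups of *Stt3b* overlapped. *Ostc*, which encodes a subunit of the STT3A enzyme, had a log2 fold change of -0.22 (adjusted p = 0.165). Of the subunits shared by both enzymes, *Ddost* had one of -0.14 (adjusted p = 0.246) and *Dad1* one of -0.10 (adjusted p = 0.401).

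The ERAD lectins and mannosidase-like proteins read the sugars of misfolded glycoproteins. Here 2 of 5 genes fell, and *Edem2* lay above the controls without passing the test. *Edem1* (chr6:108828641-108859356, + strand), whose product speeds the removal of misfolded glycoproteins, was at 496, 497 and 549.6 CPM with AdLacZ and 366, 345 and 324 CPM with Ad*Lmo3*, or 67.1% of the control mean (log2 fold change -0.58 ± 0.078 (SE), adjusted p = 0.00910). The groups did not overlap, and its adjusted p was the smallest of the 41. *Edem3* was at 79.1, 83.7 and 88.3 CPM with AdLacZ and 79.1, 74.0 and 77.5 CPM with Ad*Lmo3* and did not pass the test (log2 fold change -0.12 ± 0.065 (SE), adjusted p = 0.336). *Edem2*, which encodes the mannosidase that starts the trimming, was at 51.1, 47.1 and 48.7 CPM with AdLacZ and 52.8, 56.4 and 56.0 CPM with Ad*Lmo3*. All 3 Ad*Lmo3* libraries lay above all AdLacZ libraries, but the difference did not pass the test (log2 fold change 0.17 ± 0.061 (SE), adjusted p = 0.166). *Os9* (chr10:127095650-127121131, - strand), which encodes a lectin that delivers glycoproteins to the ligase, was at 189.6, 187 and 203 CPM with AdLacZ and 161, 158 and 154 CPM with Ad*Lmo3*, or 81.6% of the control mean (log2 fold change -0.29 ± 0.064 (SE), adjusted p = 0.0450). *Erlec1*, which encodes the other such lectin, was at 140.0, 122 and 149.8 CPM with AdLacZ and 119, 125 and 128 CPM with Ad*Lmo3* (log2 fold change -0.15 ± 0.084 (SE), adjusted p = 0.374). The groups were apart for *Os9* and overlapped for *Erlec1*. *Edem1* also had the highest level of the 5 per exon length, with 79.7 CPM per kilobase in AdLacZ and 53.5 in Ad*Lmo3*, against 14.1 and 15.9 for *Edem2*.

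**Figure D2:**
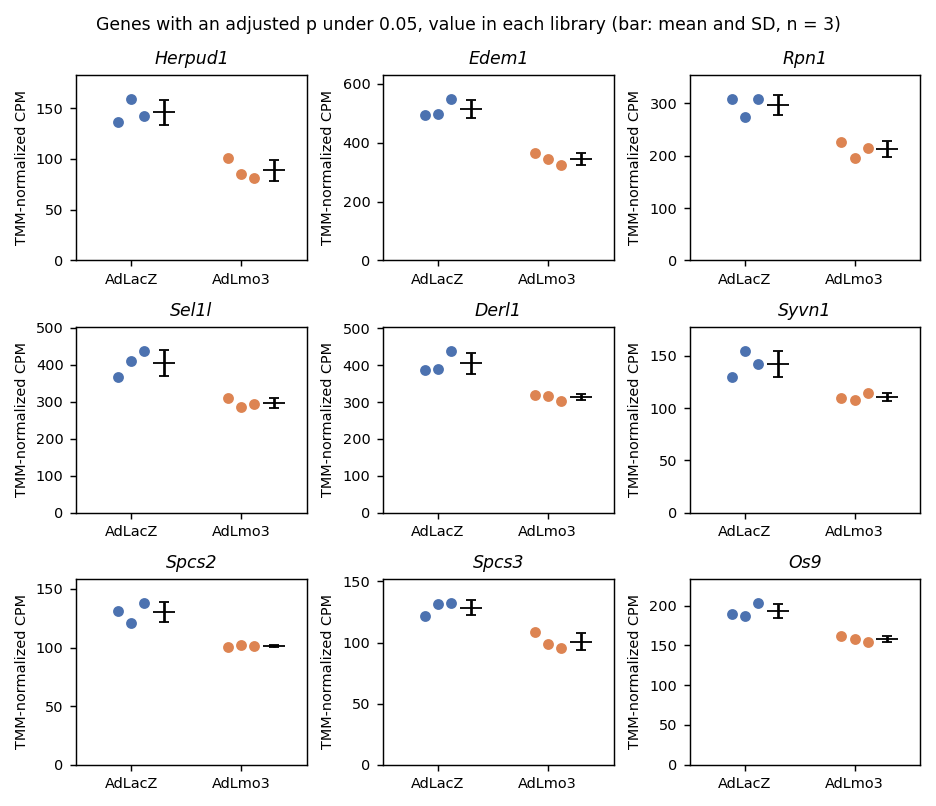
Each panel shows 1 of the 9 genes that fell, with its TMM-normalized CPM on the y axis from 0, a point for each of the 3 AdLacZ (blue) and 3 Ad*Lmo3* (orange) libraries, and bars for the mean and SD. The points of the groups do not overlap in any panel, and the lowest Ad*Lmo3* mean relative to AdLacZ is that of *Herpud1*, with 146 ± 12 CPM with AdLacZ and 88.8 ± 10.3 CPM with Ad*Lmo3* (mean ± SD, n = 3).

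The ubiquitin ligase of the ER membrane and the proteins around it held 4 of the 9 falling genes, out of 9 tested. *Herpud1* (chr8:94386438-94395377, + strand), whose product recruits and organizes the ligase, had the lowest log2 fold change of the whole list, at 136, 159 and 142 CPM with AdLacZ and 100.5, 84.8 and 81.2 CPM with Ad*Lmo3*, or 60.9% of the control mean (log2 fold change -0.72 ± 0.10 (SE), adjusted p = 0.0100). The lowest AdLacZ value stood 136 CPM and the highest Ad*Lmo3* value 100.5 CPM. *Syvn1* (chr19:6046576-6053712, + strand) encodes HRD1, the ligase itself, and was at 130.2, 155 and 142 CPM with AdLacZ and 109.7, 108 and 115 CPM with Ad*Lmo3*, or 77.8% of the control mean (log2 fold change -0.36 ± 0.078 (SE), adjusted p = 0.0420). *Sel1l* (chr12:91806043-91849157, - strand), which encodes the adaptor that stabilizes HRD1, was at 367, 409.5 and 437 CPM with AdLacZ and 309, 284 and 294 CPM with Ad*Lmo3*, or 73.1% of the control mean (log2 fold change -0.45 ± 0.082 (SE), adjusted p = 0.0240). Neither gene had overlapping groups. *Derl1* (chr15:57869502-57892448, - strand), which encodes a derlin that helps substrates leave the membrane, was at 387, 391 and 439 CPM with AdLacZ and 319.9, 318 and 303 CPM with Ad*Lmo3*, or 77.3% of the control mean (log2 fold change -0.37 ± 0.074 (SE), adjusted p = 0.0325). It had the highest level of these genes per length of all annotated exons, with 122 CPM per kilobase in AdLacZ.

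Neither of the other derlins was called lower. *Derl2* was at 128, 113 and 127 CPM with AdLacZ and 105, 107 and 114 CPM with Ad*Lmo3* (log2 fold change -0.18 ± 0.074 (SE), adjusted p = 0.220), with overlapping groups. *Derl3* had a count of 0 in all libraries but Ad*Lmo3* replicate 2, where it had 4 counts (0.109 CPM), and was not tested. *Ube2j1* and *Ube2g2* encode ubiquitin-conjugating enzymes that serve the ligase. *Ube2j1* was at 69.8, 70.4 and 74.2 CPM with AdLacZ and 68.3, 66.0 and 62.5 CPM with Ad*Lmo3* (log2 fold change -0.12 ± 0.061 (SE), adjusted p = 0.306). *Ube2g2* was at 61.5, 61.1 and 58.8 CPM with AdLacZ and 61.7, 58.5 and 54.1 CPM with Ad*Lmo3* (log2 fold change -0.057 ± 0.066 (SE), adjusted p = 0.684). The groups were apart for *Ube2j1* by a narrow margin and overlapped for *Ube2g2*. *Vimp*, which encodes the selenoprotein that binds p97 to the membrane, had a log2 fold change of -0.31 (adjusted p = 0.139) with a 95% interval of -0.54 to -0.072, and *Faf2*, another p97 recruiter, one of -0.10 (adjusted p = 0.383).

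Promoter sequences are shown for *Herpud1* and *Syvn1*, as these were the falling genes whose promoter held a full ER stress response element, the sequence through which ATF6 and XBP1 are known to act. In RefSeq promoters of GRCm38.p6, taken from 250 bases before to 50 bases after the start, 33 of the 42 genes were matched, and *Sec61a1*, *Tram1*, *Ssr2*, *Sec11c*, *Spcs3*, *Ostc*, *Erlec1*, *Derl1* and *Ube2g2* were not. Both strands were searched for ERSE (CCAAT, 9 bases of any kind, CCACG), ERSE-II (ATTGG, 1 base of any kind, CCACG) and the core of the UPR element (TGACGTG), which do not contain one another. The stretches below are the 250 bases before the start, 5′ to 3′ on the strand of the gene, with the element in capitals. The first is chr8:94386179-94386428 with an ERSE-II that starts 52 bases before the start, and the second is chr19:6046326-6046575 with an ERSE that starts 44 bases before it, both on the + strand.
Herpud1: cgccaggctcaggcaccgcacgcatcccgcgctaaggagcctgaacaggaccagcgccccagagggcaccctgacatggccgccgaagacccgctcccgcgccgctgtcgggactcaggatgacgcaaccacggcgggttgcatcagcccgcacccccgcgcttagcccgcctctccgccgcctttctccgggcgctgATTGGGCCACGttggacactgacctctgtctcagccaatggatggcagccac
Syvn1: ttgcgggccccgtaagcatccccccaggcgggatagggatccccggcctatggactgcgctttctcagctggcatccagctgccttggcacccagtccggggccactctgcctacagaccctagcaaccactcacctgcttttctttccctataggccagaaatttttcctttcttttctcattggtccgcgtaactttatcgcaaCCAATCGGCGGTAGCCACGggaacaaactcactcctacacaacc
ERSE-II was found in 0.0365% of the 32851 promoters of the table (12 promoters) and, among the matched genes, in *Herpud1*. ERSE was found in 0.119% (39 promoters) and, among the matched genes, in *Syvn1* and in *Derl3*, on the opposite strand and 156 bases before its start. *Derl3* was the gene with 4 counts in all. The UPR element core was found in 2.01% of promoters (661) and in *Srpr*, *Ube2j1* and *Vcp*, at 13, 67 and 114 bases before the start, the second on the opposite strand, and none of these 3 genes passed the test. A match is a description of the letters only, and the other 7 falling genes either had no such match in this window or no promoter entry.

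The p97 complex, which pulls the ubiquitinated protein into the cytosol, had a median of -0.053, and none of its 3 genes was lower even at an unadjusted p under 0.05 (edgeR), nor by DESeq2 or limma voom. *Vcp*, which encodes p97, was at 208, 170.2 and 199 CPM with AdLacZ and 183, 168 and 199.6 CPM with Ad*Lmo3* (log2 fold change -0.067 ± 0.10 (SE), adjusted p = 0.757), with overlapping groups. It had the highest level of the 3 genes per exon length (39.7 CPM per kilobase in AdLacZ). Its cofactors *Ufd1l* and *Nploc4* had log2 fold changes of -0.051 (adjusted p = 0.719) and -0.053 (adjusted p = 0.669). The groups overlapped for *Ufd1l*. For *Nploc4* each Ad*Lmo3* library (172, 175 and 177 CPM) lay below each AdLacZ library (183, 179 and 182 CPM). The 95% intervals were -0.29 to 0.16 for *Vcp*, -0.20 to 0.10 for *Ufd1l* and -0.19 to 0.081 for *Nploc4*. Decreases as large as that fitted for *Edem1* lay outside all 3, while the median of the 41 tested genes, -0.17, lay inside all 3.

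Set side by side, the medians of the sub-machines ran from -0.31 to -0.053, and their order was not the same by summed CPM. The median log2 fold change was -0.31 for the ligase and channel group (4 of 9 lower), -0.29 for signal peptidase (2 of 5), -0.17 for oligosaccharyltransferase (1 of 7), -0.16 for the translocon (0 of 6), -0.15 for TRAP (0 of 4), -0.15 for the ERAD lectins and mannosidase-like proteins (2 of 5), -0.093 for the receptor (0 of 2) and -0.053 for p97 (0 of 3). Summed CPM in Ad*Lmo3* came to 77.6% of AdLacZ for the lectin group, 78.3% for the ligase group, 81.9% for signal peptidase, 87.0% for oligosaccharyltransferase, 89.6% for TRAP, 90.0% for the receptor, 91.6% for the translocon and 96.1% for p97. In each library the median deviation from the AdLacZ mean separated the groups in 7 of the 8 sub-machines, and for p97 it was 0.014, -0.018 and 0.037 in AdLacZ and -0.076, -0.050 and 0.015 in Ad*Lmo3*. For the ligase group it was -0.034, -0.021 and 0.055 in AdLacZ and -0.22, -0.35 and -0.31 in Ad*Lmo3*. Leaving out 1 library moved the lectin median to -0.083 (without AdLacZ replicate 3) or -0.22 (without AdLacZ replicate 2), and the p97 median to -0.084 (without Ad*Lmo3* replicate 3, where the receptor was at -0.083), so that the order changed. Whether the sub-machines differ from each other was not tested. By function, the 17 tested ERAD genes had 6 lower and a median of -0.15, and the 24 genes of entry and glycosylation 3 lower and a median of -0.17.

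**Figure D3:**
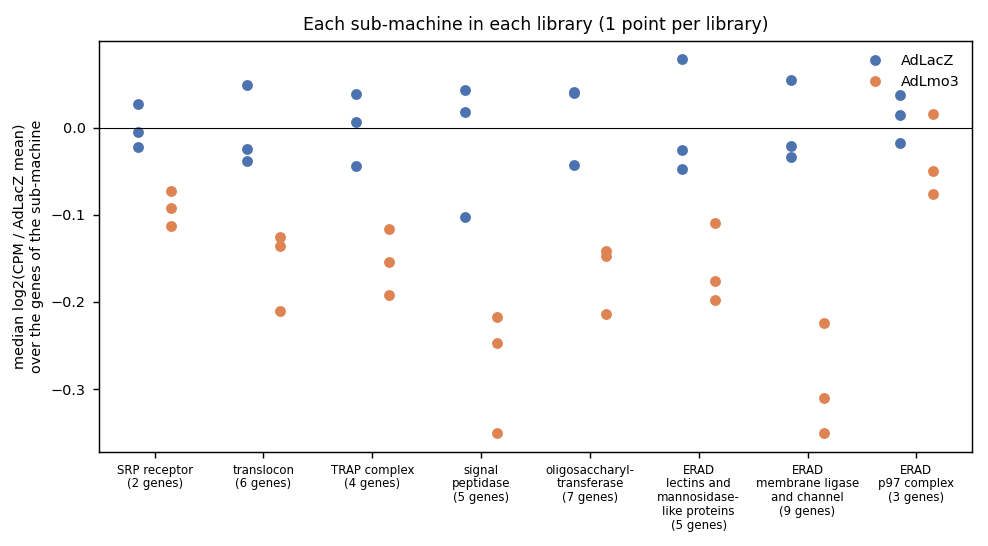
For each sub-machine (x axis, with the number of tested genes) the y axis gives the median over its genes of log2(CPM / AdLacZ mean), with 1 point for each of the 3 AdLacZ (blue) and 3 Ad*Lmo3* (orange) libraries. The Ad*Lmo3* points lie below the AdLacZ points except for p97, where they overlap, and those of the ligase group reach -0.35.

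Paralogs and genes of like role were compared within each library, as a ratio of CPM values is free of library size. Of 8 listed pairs 7 were compared, since *Derl3* had counts of 0, and with 3 against 3 libraries the two-sided exact permutation test could not go below p = 0.1. The ratio of *Edem1* to *Edem2* was 9.71, 10.6 and 11.3 with AdLacZ and 6.93, 6.11 and 5.78 with Ad*Lmo3* (difference -0.75 on the log2 scale, exact permutation p = 0.1, adjusted p = 0.233). The ratio of *Edem1* to *Edem3* was 6.27, 5.94 and 6.23 with AdLacZ and 4.63, 4.66 and 4.18 with Ad*Lmo3* (difference -0.45 on the log2 scale, exact permutation p = 0.1, adjusted p = 0.233). In both pairs the groups were apart, and the p was the smallest that the design allows. The ratio of *Erlec1* to *Os9* was 0.738, 0.655 and 0.738 with AdLacZ and 0.741, 0.792 and 0.828 with Ad*Lmo3* (difference 0.15 on the log2 scale, exact permutation p = 0.1, adjusted p = 0.233), where the groups were apart by a narrow margin. The ratio of *Derl2* to *Derl1* was 0.332, 0.288 and 0.290 with AdLacZ and 0.328, 0.338 and 0.375 with Ad*Lmo3* (difference 0.19 on the log2 scale, exact permutation p = 0.2, adjusted p = 0.35), with overlap. The groups overlapped for the other 3 pairs, *Stt3b* to *Stt3a* (difference 0.072 on the log2 scale, exact permutation p = 0.4, adjusted p = 0.400), *Sec11c* to *Sec11a* (difference -0.056 on the log2 scale, exact permutation p = 0.4, adjusted p = 0.400) and *Ube2j1* to *Ube2g2* (difference -0.065 on the log2 scale, exact permutation p = 0.3, adjusted p = 0.400). None of the 7 ratios passed the adjustment.

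The other genes of the same pathways were taken from 6 further lists. Of their 99 tested genes, 3 were lower and 0 higher by edgeR, against 1.57% and 2.71% of all genes. At an unadjusted p under 0.05 (edgeR), 18 were lower and 5 higher, against 1218 and 1417 of all 12766 tested genes. DESeq2 gave 8 lower and 2 higher, against 438 and 672 of all 12766. With limma voom there were 4 and 1, against 204 and 358. The median log2 fold change of the 99 genes was -0.067, and 70 of them (70.7%) were below 0, against 49.6% of all genes. Among 21 tested genes of other translocation and membrane insertion factors, *Asna1*, whose product inserts tail-anchored proteins, fell from 95.9, 99.8 and 96.9 to 81.7, 81.2 and 82.3 CPM (log2 fold change -0.26 ± 0.055 (SE), adjusted p = 0.0431). Among 5 other oligosaccharyltransferase subunits, *Magt1*, which encodes an oxidoreductase subunit of the STT3B enzyme, fell from 187, 205 and 221 to 160.1, 145 and 139.6 CPM (log2 fold change -0.46 ± 0.086 (SE), adjusted p = 0.0263). The groups did not overlap for either gene. The median of these 5 subunits was -0.23, further from 0 than that of the 7 listed subunits, and the medians of the other translocation and other ERAD lists were -0.071 and -0.046. Among 30 tested other ERAD genes, *Rnf185*, which encodes another ER ubiquitin ligase, fell from 83.5, 90.4 and 89.4 to 73.6, 70.4 and 65.9 CPM (log2 fold change -0.33 ± 0.067 (SE), adjusted p = 0.0357). None of 6 tested genes of the signal recognition particle, 27 of dolichol-linked sugar synthesis and 10 of N-glycan trimming passed the test by edgeR, with medians of -0.10, -0.082 and -0.085.

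A list of 10 stress-inducible genes of the ER lumen, mostly chaperones and their cofactors, was set beside the machinery. Of these, 9 fell, against 1.57% of all genes, and the median log2 fold change was -0.89 against -0.17 for the 41 genes. The tenth, *Dnajb9*, a BiP cofactor, lay above the controls in all 3 Ad*Lmo3* libraries without passing the test (log2 fold change 0.17, 95% interval 0.027 to 0.32, adjusted p = 0.173). *Hspa5*, which encodes BiP, was at 3494, 4754 and 4578 CPM with AdLacZ and 2383, 1682 and 1672 CPM with Ad*Lmo3* (log2 fold change -1.16 ± 0.17 (SE), adjusted p = 0.0123). *Sdf2l1*, a BiP cofactor, was at 64.2, 72.9 and 74.2 CPM with AdLacZ and 28.1, 20.8 and 21.5 CPM with Ad*Lmo3* (log2 fold change -1.58 ± 0.12 (SE), adjusted p = 0.00243). Each Ad*Lmo3* library lay below each AdLacZ library in both genes. *Xbp1*, which encodes a transcription factor of the unfolded protein response, was at 262, 282 and 292 CPM with AdLacZ and 274, 263 and 237 CPM with Ad*Lmo3* and did not pass the test (log2 fold change -0.11 ± 0.080 (SE), adjusted p = 0.482). Counts per gene do not separate its spliced from its unspliced form. Of 7 regulators of that response, all with a log2 fold change below 0, 1 fell by edgeR, *Ddit3*, and the median was -0.19. At an unadjusted p under 0.05 (edgeR) 5 of the 7 were lower, against 1218 of all 12766 genes. DESeq2 called 2 lower, against 3.43% of all genes, and limma voom 1, against 1.6%.

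**Figure D4:**
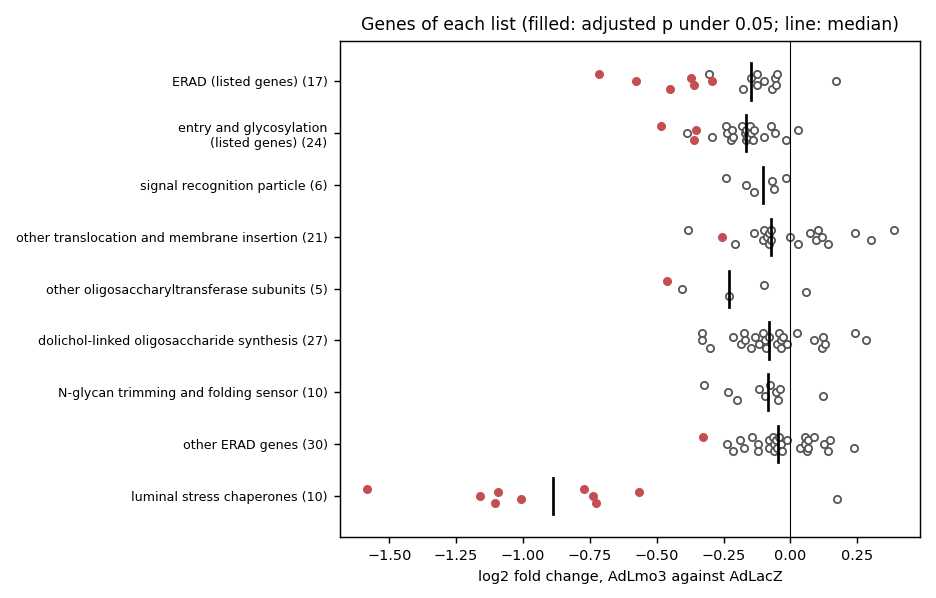
Each point is a gene, placed on the x axis by its log2 fold change of Ad*Lmo3* against AdLacZ, with lists on the y axis (number of tested genes in brackets), filled points for an adjusted p under 0.05 and a line at the median. The medians of the listed ERAD and entry genes are -0.15 and -0.17, those of the 6 further pathway lists lie between -0.23 and -0.046, and that of the luminal stress chaperones is -0.89.

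Some of these values depend on how reads were given to near-identical genes. Of the 75-base stretches in the coding sequence, 99.1% for *Srprb*, 82.4% for *Vcp*, 81.0% for *Sec61g* and 32.7% for *Sec61b* also occur in a transcript of another annotated gene, several of which are processed pseudogenes, and none of these genes passed the test. Among the falling genes the share was 19.0% for *Derl1* and 5.23% for *Spcs2*, 0.429% for *Spcs3* and 0 for the other 6. For 32 of the 42 genes it was 0.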

How the data were processed

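RNA-Seq libraries from total RNA of 6 cultures (3 AdLacZ, 3 Ad*Lmo3*) were sequenced as single reads of 75 bp. The authors mapped the reads with STAR (2.5.0b in the submitters' processing notes) to a mouse assembly given as mm10 there, and deposited raw counts of reads per gene symbol, without normalization. The counting program, its strand setting and its annotation are not given in the sources used here, so reads of overlapping or near-identical genes may have been split. Lines for reads in no gene (7.15 to 8.94%) or in several (0.476 to 0.543%), as shares of these reads and the gene counts together, were left out.

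Groups and replicate numbers were taken from the labels. The totals of 28035639 to 38332335 counts put the floor of 3 counts at 0.0783 to 0.107 CPM, without the TMM factors. The main test was edgeR's quasi-likelihood test (edgeR 4.0.16, R 4.3.3; low counts removed by filterByExpr, TMM factors of 0.964 to 1.04, group as the only term), with Benjamini-Hochberg adjustment over 12766 genes and a threshold of 0.05. The study's own group test was DESeq2, which served here as an alternative (1.42.0), beside limma voom (3.58.1), other scaling, other filters, the replicate number as a block, and each library left out. P-values measure the spread between separate infections. No samples were identical. The edgeR and DESeq2 steps were also run on simulated counts, the outcome of which is not given here.

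The genes and lists were chosen with earlier results of these data known, so they give no independent support. Full values are given for genes past the threshold, both genes of each pair and the gene of highest level per exon length in each sub-machine, and, of each other pathway list, for up to 3 genes past the threshold, and for *Hspa5*, *Sdf2l1* and *Xbp1*. *Dnajb9* and *Ddit3* were named after their values were seen. Ratios were compared by a two-sided exact permutation test (scipy 1.17.1). Positions, exon lengths and shared 75-base stretches came from GENCODE M21 (GRCm38), promoters from RefSeq (GRCm38.p6), and figures from matplotlib 3.10.9.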

Additional observations from a re-analysis of the deposited data

How the results depend on the processing

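The 9 falling genes stayed below 0 under all 8 other settings and when each of the 6 libraries was left out, with a log2 fold change of at least 0.255 in size. How many genes passed the test depended on the libraries. Leaving out 1 library gave 0 to 6 genes, with 0.17% to 1.14% of all genes lower. The 6 genes, without Ad*Lmo3* replicate 1, were 5 of the 9 and *Vimp*. In the fits that left out 1 library, medians were -0.22 to -0.083 for the ERAD lectin group, -0.35 to -0.22 for the ligase group and -0.084 to -0.037 for p97. Adjusted p-values of the 9 genes in those edgeR fits went up to 0.184. *Edem1* and *Herpud1* passed the test in 4 of these 6 fits.

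Other scaling factors (DESeq2 size factors, upper quartile), a filter at a mean of 1 CPM and limma voom gave 9 genes each. Without a count filter there were 8 (*Os9* was lost, adjusted p = 0.0535). DESeq2 gave 12, adding *Sec11c*, *Ssr3* and *Stt3a*. Library totals without TMM gave 13, adding *Sec11a*, *Sec11c*, *Srpr* and *Stt3a*, and moved the median of all tested genes to -0.072. The medians then were -0.24 for the whole list, -0.17 for the receptor, -0.24 for the translocon, -0.23 for TRAP, -0.24 for oligosaccharyltransferase, -0.22 for the lectin group, -0.38 for the ligase group and -0.13 for p97. In these totals *Srprb* turned from 0.028 to -0.046. *Sec62* ranged from -0.083 to 0.042 when a library was left out (0.0057 without Ad*Lmo3* replicate 1), so it had no settled direction.

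The replicate block gave 5 genes (*Edem1*, *Herpud1*, *Rpn1*, *Sel1l* and *Spcs2*), with 1.17% of all genes lower. In that fit *Syvn1*, *Derl1*, *Spcs3* and *Os9* were at adjusted p = 0.0572, 0.0592, 0.0658 and 0.0725. Same-numbered libraries deviated from their group means with correlations of 0.0345, 0.176 and 0.176, and AdLacZ replicate 1 correlated best with Ad*Lmo3* replicate 3 (0.111), so the numbers were not taken as pairs. *Derl3*, near the floor of 3 counts, could not be assessed at this depth.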
